A study of Saccharomyces cerevisiae with 40 samples.

Results

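The vacuolar protein sorting genes of the budding yeast *Saccharomyces cerevisiae* carry the symbol VPS followed by a number. All genes with such a symbol that were present on both array types of the series were taken, which gave 41 genes out of 5513 on both. The same 41 were found on the cDNA arrays (of 5540 genes) and on the Agilent arrays (of 5598 genes). All cells were of the haploid laboratory strain BY4741, a MATa strain with deletions in HIS3, LEU2, MET15 and URA3, which the controls carried too. Cultures in synthetic complete medium were split, and sodium arsenite (AsIII) was added to one part. On cDNA arrays the treated and untreated parts were compared after 30 min at 1 mM (2 culture pairs, 8 arrays) and after 30 min, 2 h or 4 h at 100 μM (1 culture pair and 4 arrays each). On Agilent arrays the parent strain (4 arrays) and strains lacking YAP1, CAD1, RPN4 or ARR1 (2 arrays each) were compared with their own untreated cultures after 2 h at 100 μM, and each untreated deletion strain was compared with the untreated parent (2 arrays each). The 4 deleted genes encode transcription factors, each deletion was studied in a single strain, and no expression array of the series tested a strain lacking a VPS gene. The study also measured the growth of pooled deletion strains of nonessential genes with arsenic, and those data are not used here.

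Newly made vacuolar hydrolases travel from the Golgi to endosomes and on to the vacuole, the degradative and storage compartment of the yeast cell. VPS genes were found through mutants that misroute these enzymes. Their products include tethers and fusion factors at endosome and vacuole, the retromer that returns receptors to the Golgi, the ESCRT complexes that sort membrane proteins into the endosome, and a lipid kinase that marks endosomal membrane. The vacuole also takes up glutathione conjugates of arsenite through the transporter Ycf1. A few genes with a VPS symbol encode chromatin proteins.

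Every value is a log2 ratio, treated over untreated or deletion strain over parent, so that 1 is a 2-fold increase. Medians of single arrays over all genes lay between -0.06 and 0.07 on the cDNA arrays and between -0.11 and 0.002 on the Agilent arrays. All 5 genes chosen to check the treatment rose after 1 mM and in the parent on Agilent arrays. The highest was OYE3, an NADPH dehydrogenase gene, at 6.87 and 6.54. At 100 μM on cDNA arrays they ran from 2.39 (SSA4) to 7.55 (OYE3) at 2 h. At the other times they went both ways, from -0.42 (SSA4) to 4.71 (OYE3) at 30 min and from -2.04 (HSP26) to 3.84 (GRE2) at 4 h. In the untreated deletion strains the missing gene read -4.35 for YAP1, -4.76 for CAD1, -4.04 for RPN4 and -2.27 for ARR1. In treated over untreated cad1Δ cells CAD1 read 0.80 and was called at the threshold used below, though the strain lacks this gene. YAP1 (0.09 in yap1Δ), RPN4 (0.10 in rpn4Δ) and ARR1 (0.11 in arr1Δ) were not called. A call on the Agilent arrays is thus not by itself a change in the RNA of a gene. Each dye orientation was present in every group, and the orientations disagreed in sign for 5 of 41 members in the AsIII-treated parent and for 12 of 41 at 1 mM. Between the untreated strains they disagreed for 16 to 30 of 41 members. A ratio is relative to the whole labelled RNA, and less of an RNA in every cell cannot be told apart from fewer cells that hold it.

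After 30 min at 1 mM AsIII, 4 VPS genes rose and 0 fell. The risers were VPS55 (a late endosomal membrane protein), VPS72 (a subunit of the SWR1 chromatin remodeller), VPS74 (which keeps glycosyltransferases in the Golgi) and VPS60 (an ESCRT-associated protein). These 4 are 9.76% of the members, beside 9.69% of all genes that rose and 7.09% that fell at the same threshold, an adjusted p under 0.05 in limma. The member median was 0.07 and the median of all genes 0.02. The members spread less than the genome, with an SD over genes of 0.50 against 0.84. Both culture pairs gave the same direction for all 4 genes, and with 1 pair alone no spread was left for a test.

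VPS55 ranged from 1.21 over a median of 1.46 to 1.96 on the 8 arrays, which is 2.84-fold on average (1.51, SE 0.22, adjusted p = 0.014). VPS72 ranged from 1.04 over 1.35 to 1.70 (mean 1.38, SE 0.20, adjusted p = 0.014). Both were above 1 on every array of both culture pairs. VPS74 ranged from 0.38 over 1.13 to 1.55 (mean 1.00, SE 0.20, adjusted p = 0.031), and VPS60 from 0.51 over 0.86 to 1.42 (mean 0.89, SE 0.20, adjusted p = 0.040). VPS74 and VPS60 were positive on all 8 arrays but did not pass with the arrays labelled with Cy3 alone (0.71 and 0.76). At the low end VPS62 stood at -0.72, VPS38 at -0.66 and VPS34 at -0.65, negative on all 8 arrays, with adjusted p of 0.065, 0.076 and 0.091. VPS38 and VPS34 belong to the phosphatidylinositol 3-kinase complexes.

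At 100 μM the VPS genes gave no call at any time on the cDNA arrays. At 30 min the members lay between -0.76 and 0.34, and 0% of all genes were called in either direction by limma. Even OYE3, at 4.71, was not called there, so a missing call does not show that a gene stayed the same. There 1 member had an unadjusted p under 0.05, beside 2.6% of all genes. At 2 h, 0 of 41 members passed, beside 3.75% of all genes that rose and 2.18% that fell. An unadjusted p under 0.05 was found for 7 members, beside 26.8% of all genes. At 4 h, 0 members passed beside 0.0542% of all genes, and 2 members had an unadjusted p under 0.05, beside 13.2% of all genes. Each of these conditions is 1 culture pair, and its spread was taken from the pairs at 1 mM.

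At 2 h the highest members were the SWR1 subunit genes. VPS71 read 1.32, 1.22, 1.29 and 0.98 on the 4 arrays (mean 1.20, adjusted p = 0.091), and VPS72 read 1.24, 1.24, 0.82 and 0.67 (mean 0.99, adjusted p = 0.10). All 8 of these values were above those of the same genes at 30 min, which reached at most 0.45 for VPS71 and 0.42 for VPS72. At 4 h VPS71 lay between -0.41 and 0.17 and VPS72 between -0.48 and 0.73. VPS55 read 0.47 to 1.08 at 2 h, -0.23 to 0.39 at 30 min and -0.57 to 0.03 at 4 h. The arrays at 2 h lay above those of the other times for VPS55 and VPS71, while for VPS72 the highest array at 4 h (0.73) lay above the lowest at 2 h (0.67).

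**Figure D1:**
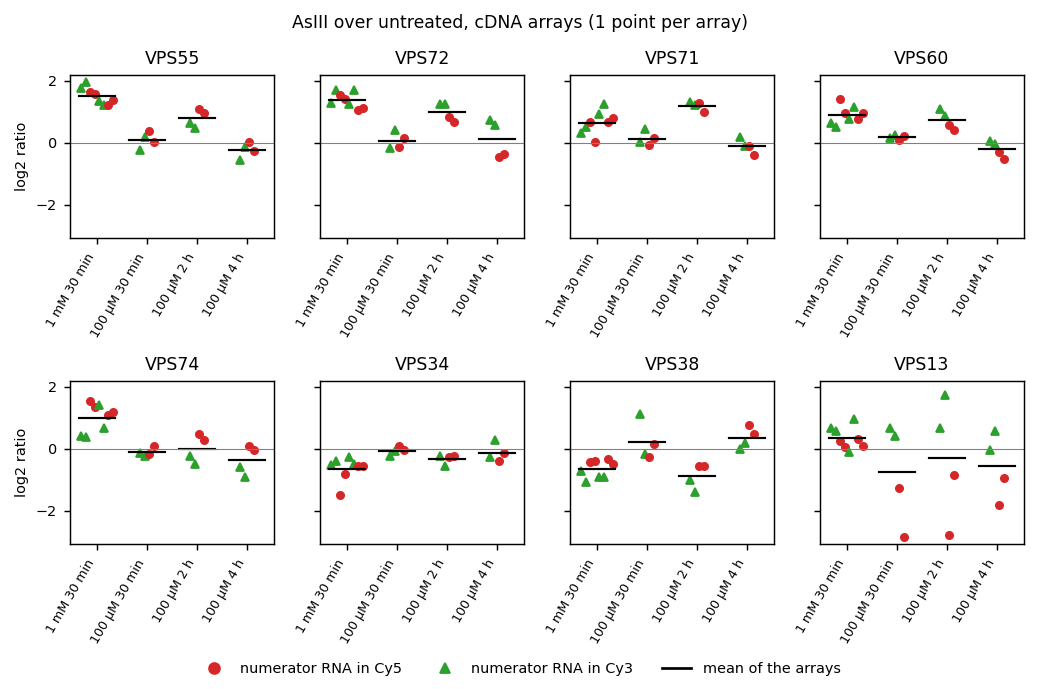
Log2 ratios (y axis) of 8 VPS genes on every cDNA array, by dose and time (x axis); circles are arrays with the treated RNA in Cy5, triangles arrays with it in Cy3, and bars the mean of the arrays. VPS55 and VPS72 are high at 1 mM and again at 2 h, while the points of VPS13 split by dye, from -2.85 to 0.66 at 30 min.

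The 2 lowest members at 2 h were VPS1, which encodes a dynamin-like GTPase, and VPS38. VPS1 read 0.03, -0.17, -1.94 and -1.57, the first 2 with the treated RNA in Cy3, and its mean of -0.91 did not pass (adjusted p = 0.13). With the Cy5 arrays alone it stood at -1.76 and passed. VPS38 read -1.02, -1.39, -0.55 and -0.56 (mean -0.88, adjusted p = 0.12), negative in both orientations. At 4 h the 2 extremes were VPS36 (an ESCRT-II subunit) at -1.03 and VPS4 (the ATPase that takes ESCRT-III apart) at 0.99, both with an adjusted p of 0.28. VPS4 was above 0 on all 16 arrays at 1 mM, 2 h and 4 h and averaged 0.58, 0.56 and 0.99 in that order, with no call.

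The differences between doses and between times were tested directly. For 2 h minus 30 min, for 4 h minus 2 h and for 1 mM minus 100 μM at 30 min, 0 members and 0% of all genes passed in limma, while 1, 2 and 4 members had an unadjusted p under 0.05. Of all genes, 15.5%, 22.0% and 14.3% had such a p in the same order. The highest difference between doses was that of VPS55 at 1.41 and the next that of VPS72 at 1.31. From 2 h to 4 h VPS71 fell furthest, by 1.32 without passing, and VPS38 had the highest difference at 1.23. When the 3 culture pairs at 1 mM and at 100 μM for 2 h were fitted as 1 response, VPS55 (1.27), VPS72 (1.25) and VPS60 (0.84) rose and 0 members fell, with adjusted p of 0.028, 0.018 and 0.038. That is 7.32% of members, beside 9.35% of all genes that rose and 4.66% that fell. Leaving out either culture pair at 1 mM took all 3 calls away, and leaving out the pair at 2 h gave 4.

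On the Agilent arrays the parent strain showed larger changes in both directions after 2 h at 100 μM. VPS55 rose 5.28-fold, VPS72 2.16-fold and VPS71 2.14-fold, while VPS34 fell 3.56-fold, VPS13 2.78-fold and VPS30 2.20-fold. In all, 15 members rose and 18 fell (36.6% and 43.9%), beside 34.7% of all genes that rose and 42.7% that fell. Only the 2 array pairs of the parent strain gave the spread for this platform, and limma pooled it to 1 value for all genes (SD 0.172). The sources used here do not say that these pairs came from separate cultures, so the p-values measure a spread that may be technical. With the study's stricter rule, an unadjusted p under 0.001 and at least 2-fold, 3 members rose and 3 fell (7.32% each), beside 11.5% and 13.8% of all genes. The member median was -0.03 and that of all genes -0.10.

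**Figure D2:**
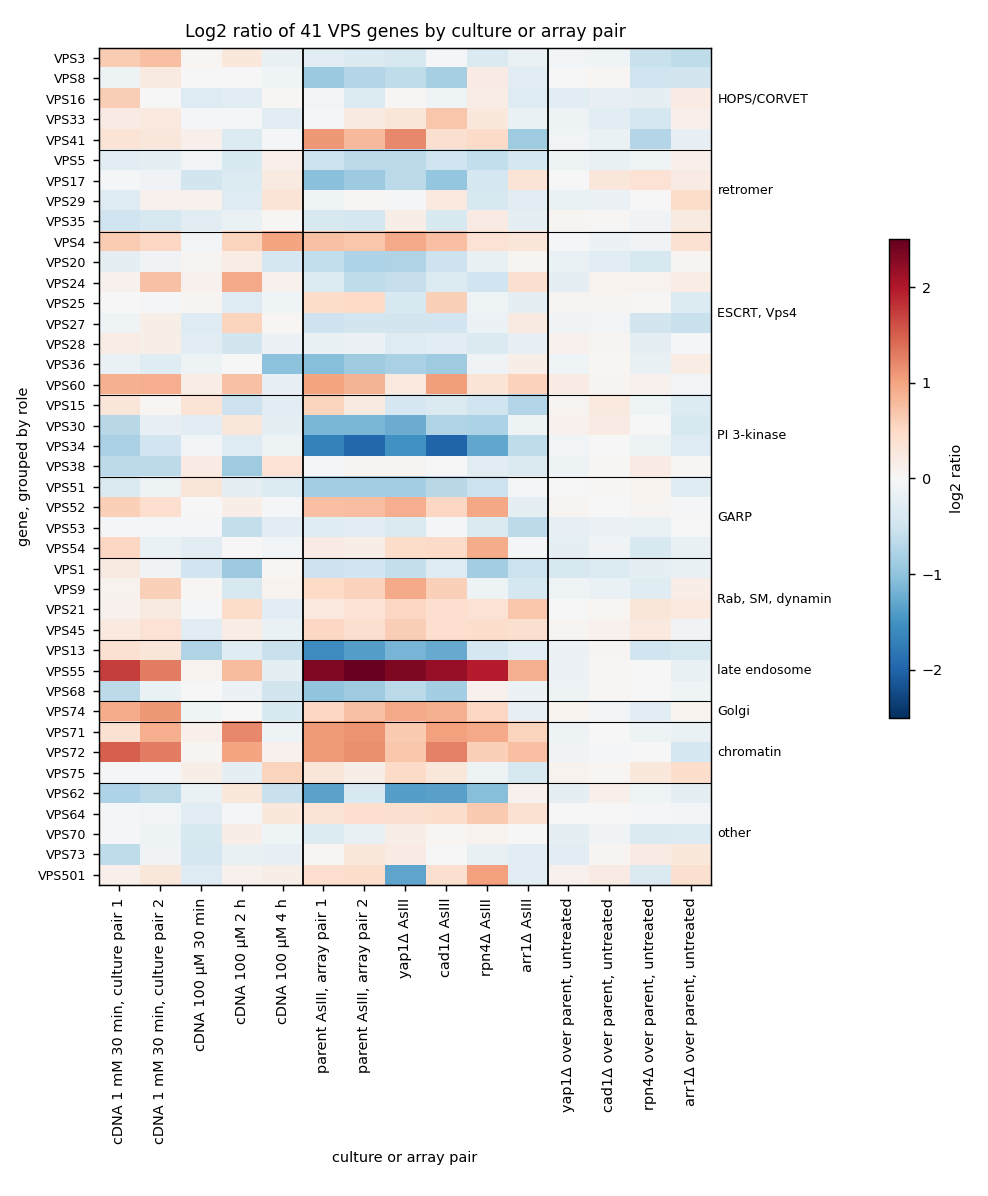
Mean log2 ratio (colour) of the 41 VPS genes (rows, grouped by the role of their products) in each culture or array pair (columns: cDNA arrays, Agilent arrays after AsIII, and untreated deletion strains over parent). VPS55 is the highest member in all 5 strains treated on Agilent arrays, and the untreated strains on the right lie between -0.72 and 0.46.

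Among the HOPS and CORVET tethers, which join membranes before fusion at the vacuole and at endosomes, the members did not move together in the parent. VPS41, the HOPS subunit that binds the vacuolar Rab, read 1.33, 1.17, 0.82 and 0.46 (mean 0.95, SE 0.12, adjusted p = 2.8e-14). The CORVET subunit genes VPS8 (-0.83) and VPS3 (-0.31) fell, with the 4 arrays of VPS8 between -0.95 and -0.71. VPS16 (-0.20) and VPS33 (0.09), which encode the core shared by both tethers, did not pass. At 1 mM all 5 were between 0.05 and 0.69, and none passed. On the cDNA arrays at the same dose and time as the parent they lay between -0.35 and 0.26, with no call. VPS41 was the lowest there (-0.35), opposite in sign to the Agilent arrays. It read 0.09 and 0.35 with Cy3 and -0.55 and -1.28 with Cy5.

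The retromer genes fell or did not pass. VPS17 (-0.98, arrays between -1.08 and -0.90) and VPS5 (-0.60, arrays between -0.74 and -0.48) encode its sorting nexins, and VPS35 (-0.43) and VPS29 (-0.03) parts of its cargo-binding core. VPS29 did not pass (adjusted p = 0.85). On the cDNA arrays the 4 genes lay between -0.45 and -0.07 at 1 mM and between -0.39 and -0.17 at 2 h, as means below 0 with no call. At 100 μM they lay between -0.45 and 0.11 at 30 min, with VPS29 above 0, and between 0.02 and 0.34 at 4 h, where all 4 means were above 0, also with no call. The reading frame of VPS5 overlaps that of VAM10 in the current annotation. VAM10 had its own measurement, which was -0.03 in the parent (adjusted p = 0.82).

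Of the 8 ESCRT genes, 3 rose and 4 fell in the parent. VPS60 (0.92), VPS4 (0.71) and VPS25 (0.47) rose. VPS36 (-0.98), VPS20 (-0.69), VPS27 (-0.49) and VPS24 (-0.49) fell, and VPS28 (-0.17) did not pass. The ESCRT-II subunits VPS25 and VPS36 therefore went in opposite directions, with arrays between 0.36 and 0.62 for VPS25 and between -1.15 and -0.74 for VPS36. VPS24 was higher in treated cells on all 4 cDNA arrays at 2 h (0.58 to 1.24) and lower on all 4 Agilent arrays (-0.82 to -0.09) at the same dose and time. The cDNA means at 2 h also had the opposite sign for VPS27 (0.55), VPS20 (0.19) and VPS25 (-0.33). They had the same sign for VPS60 (0.73), VPS4 (0.56), VPS36 (-0.02) and VPS28 (-0.47), and none of the 8 passed. At 1 mM VPS24 lay between 0.42 and 0.93 on 7 arrays and at -1.52 on the remaining one.

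The phosphatidylinositol 3-kinase genes held the lowest member of all. VPS34, which encodes the lipid kinase itself, read -1.62, -1.89, -1.78 and -2.04 (mean -1.83, SE 0.12, adjusted p = 3.2e-49). Its 2 probes gave -2.10 and -1.56. VPS30, the yeast counterpart of human beclin, read -0.94, -0.73, -1.33 and -1.54 (mean -1.13). The protein kinase gene VPS15 rose by the test (0.39, adjusted p = 0.0018), but its arrays read 1.08, 0.44, 0.04 and 0.01, near 0 on both arrays with the treated RNA in Cy3. VPS38 did not pass (0.02, adjusted p = 0.89). On the cDNA arrays VPS34 was below 0 on all 12 arrays at 1 mM and at 2 h, at -0.65 and -0.33, and VPS38, whose reading frame overlaps that of DCR2, on the same 12 at -0.66 and -0.88. VPS30 stood at -0.45 at 1 mM but was above 0 on all 4 cDNA arrays at 2 h (0.13 to 0.48, mean 0.29). VPS15 averaged -0.52 at 2 h, so both had the opposite sign to the Agilent arrays there, with no call.

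The GARP tether receives endosomal vesicles at the Golgi, and its 4 subunit genes split. VPS52 rose (0.76, arrays between 0.59 and 0.96), VPS51 (-0.86, arrays between -0.88 and -0.81) and VPS53 (-0.29) fell, and VPS54 did not pass (0.18). The genes VPS9 (0.54), VPS45 (0.45) and VPS21 (0.30), whose products act in fusion at endosomes, rose. VPS1 (-0.50), the gene of the dynamin-like GTPase, fell. Vps21 is an endosomal Rab GTPase, Vps9 its exchange factor and Vps45 a partner of SNARE proteins. VPS21 read -0.01 and -0.10 with Cy5 and 0.50 and 0.80 with Cy3, above 0 in only 1 orientation. On the cDNA arrays at 2 h VPS9 was below 0 on all 4 arrays (-0.69 to -0.09, mean -0.40), opposite to the Agilent arrays. VPS45 (0.18), VPS21 (0.46) and VPS1 (-0.91) kept their sign there, and none of the 4 passed.

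Of the late endosomal genes, VPS55 read 2.21, 2.50, 2.40 and 2.49 in the parent, the highest of all members (mean 2.40, SE 0.12, adjusted p = 1.8e-82). VPS68, whose product forms a complex with Vps55, went the other way at -1.07, -1.20, -0.90 and -0.59 (mean -0.94). VPS13, which encodes a lipid transport protein of membrane contact sites, read -1.43, -1.35, -1.70 and -1.41 (mean -1.47). At the same dose and time on cDNA arrays VPS13 read 0.66 and 1.75 with Cy3 and -2.78 and -0.86 with Cy5, and VPS55 averaged 0.79. VPS74, the Golgi gene, rose in the parent (0.63, arrays between 0.48 and 0.78).

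The chromatin genes VPS71 and VPS72, whose products act in the SWR1 complex that places the histone variant H2A.Z, rose to almost the same level. VPS71 read 1.03, 1.22, 1.09 and 1.04 and VPS72 1.00, 0.98, 1.14 and 1.33. VPS75, which encodes a histone chaperone and overlaps CWC25, did not pass (0.23, adjusted p = 0.079). Of the other genes, VPS501 (0.43, a sorting nexin gene) and VPS64 (0.38) rose, VPS62 (-0.86) and VPS70 (-0.26) fell, and VPS73 did not pass (0.17). VPS62 read -1.64 and -1.78 with Cy5 and -1.03 and 1.02 with Cy3, and its 2 probes averaged -1.36 and -0.36, the widest gap between probes of any member. VPS62 also had the largest gap between orientations in 6 of the 9 Agilent groups.

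Positions of the genes were taken from the current annotation, by order only. Only some neighbours are named here, by no fixed rule. VPS52, VPS72 and VPS60 are neighbours on chromosome IV and rose together in the parent (0.76, 1.11 and 0.92), while KRE2 next to VPS52 fell (-1.16) and RIB3 next to VPS60 did not pass (-0.20). They belong to 3 different complexes. VPS52 did not pass at 1 mM (0.51) and stood at -0.25 in arr1Δ after AsIII, where VPS72 (0.76) and VPS60 (0.58) rose. VPS55 lies beside SSC1, the gene of a mitochondrial Hsp70, which rose to 0.52 in the parent, where VPS55 stood at 2.40, and to 1.28 at 1 mM, beside 1.51 for VPS55. On the cDNA arrays after 2 h at 100 μM SSC1 read 1.39 and VPS55 0.79, and SSC1 did not pass (adjusted p = 0.12). VPS62 lies beside BTN2, which rose to 2.03 in the parent and 4.17 at 1 mM, and VPS13 beside the ubiquitin gene UBI4, which rose to 0.57. The members next to these 2 genes had values of the opposite sign in the parent (-0.86 and -1.47). MSA2 beside VPS501 (3.15) and MAD2 beside VPS53 (2.07) also rose in the parent, where VPS501 stood at 0.43 and VPS53 at -0.29.

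In the parent more of the other vacuolar pathway genes fell than rose, as also held for all genes (34.7% rose and 42.7% fell). Of 35 partner genes with other symbols, such as PEP5 (-1.68) and VAM7 (1.60), 10 rose and 18 fell. Of 9 vacuolar hydrolase genes 8 fell, with APE3 at -2.21 and AMS1 at -1.52, and 1 rose, APE1. Of 14 measured V-ATPase subunit genes 10 fell and 1 rose, with VMA1 at -1.52 and VPH1 at -1.33. Of the 5 genes of the Fab1 lipid kinase pathway 4 fell, ATG18 at -1.50 the lowest, and FIG4 rose (1.20), and of the 4 AP-3 adaptor genes 2 fell and 1 rose. Medians were -0.34 for the partners, -1.02 for the hydrolases, -0.70 for the V-ATPase and -0.72 for the Fab1 pathway, beside -0.10 for all genes. On the cDNA arrays at the same dose and time the hydrolase median had the opposite sign (0.69, with the highest value 1.76 for APE1), and those of the partners (-0.02), the V-ATPase (-0.63) and the Fab1 pathway (-0.11) were below 0, beside -0.06 for all genes. There 1 gene of these lists rose, the partner MVP1 (1.60), and 0 fell, beside 3.75% and 2.18% of all genes. On cDNA arrays at 1 mM 2 partner genes rose, MVP1 (1.03) and HSE1 (1.03), and 2 hydrolase genes, APE1 (2.23) and PEP4 (1.15), and 0 genes of these lists fell, of 34 partner and 9 hydrolase genes measured and beside 9.69% of all genes that rose and 7.09% that fell. The arsenite exporter gene ARR3 rose in both (2.18 and 1.23), while YCF1 did not pass in either (0.41 and 0.02).

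Each of the 4 deletion strains was treated beside its own untreated culture. In yap1Δ 13 members rose and 19 fell, beside 30.5% and 36% of all genes. In cad1Δ 16 rose and 13 fell, beside 31.9% and 36%. In rpn4Δ 10 rose and 11 fell, beside 24.4% and 29.9%, and in arr1Δ 7 rose and 8 fell, beside 23.2% and 26.9%. With the 2-fold rule the members that rose and fell were 2 and 5 in yap1Δ (11.6% and 13.6% of all genes), 4 and 3 in cad1Δ (13.1% and 14%), 2 and 2 in rpn4Δ (7.81% and 6.77%) and 0 and 0 in arr1Δ (5.57% and 6.13%). The SD of the log2 ratios over members was 0.82 in the parent, 0.82 in yap1Δ, 0.80 in cad1Δ, 0.64 in rpn4Δ and 0.42 in arr1Δ, and over all genes it was 0.98, 0.97, 1.03, 0.79 and 0.72.

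VPS55, VPS72, VPS71 and VPS45 rose in the parent and in all 4 deletion strains, and VPS34 and VPS5 fell in all 5. Such calls were made for 9.07% of all genes upward and for 10.6% downward. VPS55 stood at 2.33 in yap1Δ, 2.17 in cad1Δ, 1.97 in rpn4Δ and 0.88 in arr1Δ, and VPS34 at -1.51, -2.0, -1.31 and -0.63. VPS45 (0.40 to 0.61) and VPS5 (-0.66 to -0.43) varied least of the 6. In arr1Δ VPS71 read 0.08 with Cy5 and 1.02 with Cy3, and with Cy5 alone it did not pass. Another 7 members were called in opposite directions in different strains, namely VPS9, VPS15, VPS24, VPS25, VPS41, VPS75 and VPS501, beside 15% of all genes. Both calls of VPS75 rest on orientations that disagreed in sign. It read -0.29 with Cy5 and 1.23 with Cy3 in yap1Δ, where it rose, and -1.20 and 0.40 in arr1Δ, where it fell. VPS24, which rose in arr1Δ, read 0.01 with Cy5 and 0.80 with Cy3 there. VPS16, VPS28, VPS38 and VPS73 were not called in any of the 5, beside 6.68% of all genes.

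**Figure D3:**
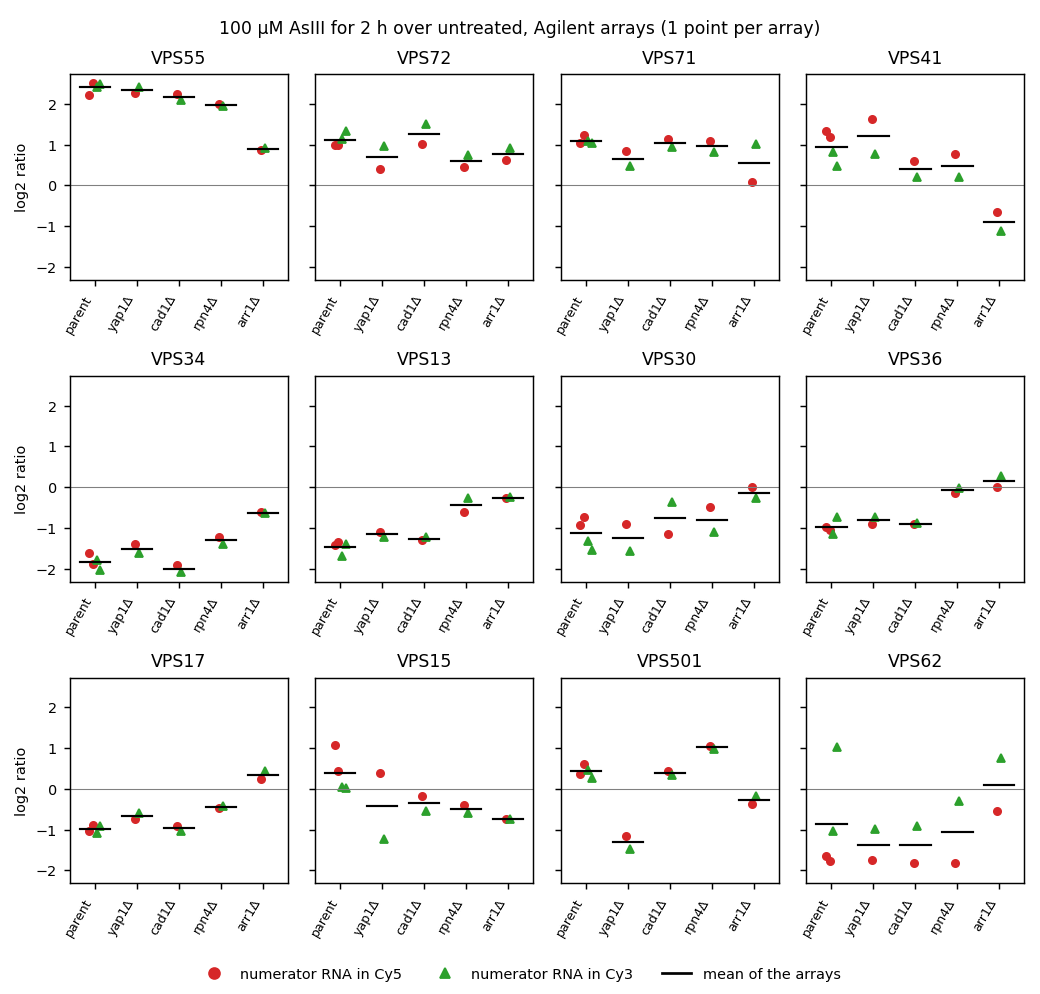
Log2 ratios (y axis) of 12 VPS genes on every Agilent array after 2 h at 100 μM AsIII, by strain (x axis); circles are arrays with the treated RNA in Cy5, triangles arrays with it in Cy3, and bars the mean of the arrays. VPS41 is above 0 in 4 strains and at -0.66 and -1.13 in arr1Δ, and VPS501 is below -1 in yap1Δ alone.

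The difference between each deletion strain and the parent was tested in the same fit. All 4 of these differences use the same 4 parent arrays, so a deviation of those arrays enters each of them. In yap1Δ 4 members were lower than in the parent and 0 higher, beside 7.36% and 5.39% of all genes. VPS501 rose in the parent (0.37, 0.61, 0.47 and 0.27) and fell in yap1Δ (-1.15 and -1.47), a difference of -1.74 (SE 0.21, adjusted p = 1.3e-14). VPS25 (-0.86), VPS15 (-0.82) and VPS60 (-0.67) were the others. VPS15 differed by -0.37 with Cy5 alone and no longer passed, and its yap1Δ arrays read 0.39 and -1.24. VPS25 (-0.72) and VPS60 (-0.57) did not pass with Cy3 alone. In untreated yap1Δ cells VPS501 stood at 0.11 over the parent and did not pass.

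In cad1Δ VPS15 alone differed (-0.75, adjusted p = 0.016), beside 2.48% of all genes lower and 1.75% higher, and in neither orientation alone did it pass (-0.93 and -0.56). VPS15 was lower than in the parent in all 4 strains, at -0.82, -0.75, -0.89 and -1.12. Its first parent array (1.08) stood above the other 3 parent arrays (0.44, 0.04 and 0.01), and it is in all 4 differences.

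In rpn4Δ 10 members were higher and 5 lower than in the parent, beside 21.3% and 17.7% of all genes. The highest differences were those of VPS68 (1.05), VPS8 (1.04), VPS13 (1.02) and VPS36 (0.90), all 4 of which had fallen in the parent. In rpn4Δ VPS68 read -0.14 and 0.36, VPS8 0.26 and 0.16, VPS13 -0.62 and -0.28, and VPS36 -0.14 and -0.03. The lowest were those of VPS15 (-0.89), VPS9 (-0.66), VPS25 (-0.58), VPS60 (-0.58) and VPS72 (-0.52), and none of these 5 passed with Cy3 alone. VPS54 (0.76) and VPS501 (0.59) were higher in rpn4Δ, at 0.94 and 1.02, than in the parent. Before treatment VPS8 and VPS13 were already lower in rpn4Δ than in the parent.

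In arr1Δ 12 members were higher and 10 lower than in the parent, beside 28.6% and 25.5% of all genes. VPS41 had risen in the parent and fell in arr1Δ (-0.66 and -1.13), a difference of -1.84 (SE 0.21, adjusted p = 8.4e-17), the largest of any member in any strain. VPS55 still rose but by less, at 0.86 and 0.90, a difference of -1.52 (adjusted p = 8.6e-12). VPS15 (-1.12), VPS52 (-1.01) and VPS9 (-0.98) followed. The highest differences were those of VPS17 (1.31), VPS13 (1.21), VPS34 (1.21), VPS36 (1.12) and VPS30 (1.00), all of which had fallen in the parent. VPS17 read 0.24 and 0.43 in arr1Δ against -1.08 to -0.90 in the parent, and VPS13 read -0.27 and -0.25 against -1.70 to -1.35. Of the 22 members that differed, 9 did so by at least 2-fold at an unadjusted p under 0.001. The share of all genes under that rule is not given here, so the 9 cannot be set against it. The SD of the differences was 0.77 over members and 0.84 over all genes. In the other lists, 7 of 9 hydrolase genes and 13 of 35 partner genes had a higher ratio in arr1Δ than in the parent. A lower ratio was found for 0 and 5. Of 14 V-ATPase genes 6 were higher and 4 lower, of 5 Fab1 pathway genes 4 and 1, and of 4 AP-3 genes 0 and 1. Before treatment 4 hydrolase genes were already lower in arr1Δ than in the parent and 0 higher. A higher ratio of these genes is therefore not by itself a higher level after AsIII.

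**Figure D4:**
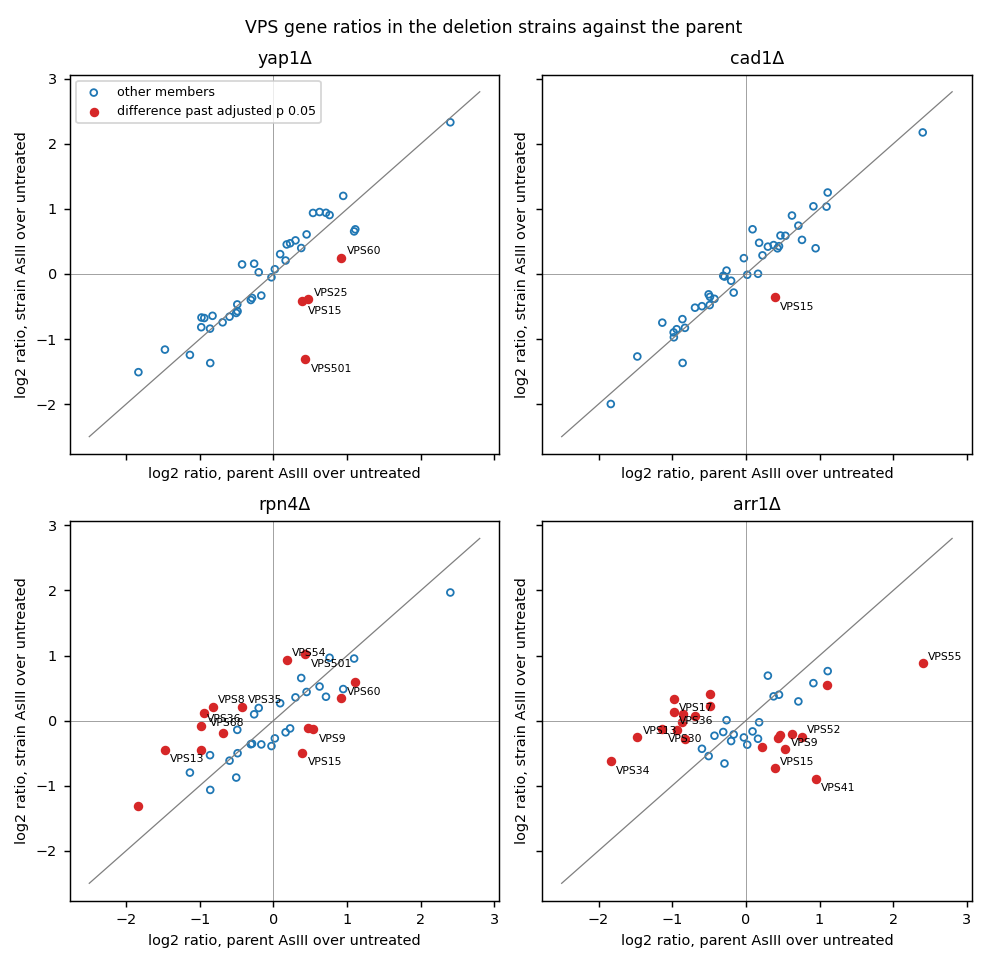
Log2 ratio after AsIII of each VPS gene in a deletion strain (y axis) against the parent (x axis), 1 panel per strain; filled points are members whose difference passed an adjusted p of 0.05 (the widest differences are named), and the line marks equal ratios. In arr1Δ the members lie between -0.89 and 0.88 over a parent range of -1.83 to 2.40, and in cad1Δ only VPS15 is filled.

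Without arsenite the VPS genes of the deletion strains stayed close to the parent. In yap1Δ and in cad1Δ 0 members were called, beside 2.59% of all genes higher and 1.29% lower in yap1Δ and 1.71% and 0.965% in cad1Δ. An unadjusted p under 0.05 was found for 1 member in each, beside 11.7% of all genes in yap1Δ and 7.8% in cad1Δ. The extremes were VPS1 (-0.39) and VPS60 (0.20) in yap1Δ and VPS1 (-0.34) and VPS17 (0.28) in cad1Δ. In yap1Δ both changed sign with the dye orientation, VPS1 reading 0.14 and -0.92 and VPS60 0.61 and -0.22. In rpn4Δ 5 members were lower and 0 higher, beside 11% and 10.9% of all genes. VPS41 read -0.42 and -1.03 (mean -0.72, adjusted p = 0.00029), and VPS3 (-0.56), VPS8 (-0.50), VPS13 (-0.49) and VPS27 (-0.45) followed. All 5 were below 0 in both orientations, and each of them failed to pass in 1 orientation alone.

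In untreated arr1Δ 4 members were lower and 1 higher, beside 11.5% and 11.8% of all genes. VPS3 read -0.36 and -0.92 (mean -0.64, adjusted p = 0.0020) and VPS27, which encodes an ESCRT-0 subunit, -0.12 and -1.0 (mean -0.56). VPS8 (-0.45) and VPS72 (-0.45) were lower too, and VPS29 read 0.47 and 0.45 (adjusted p = 0.037). Each of these 5 failed to pass in at least 1 orientation alone. VPS3, VPS8 and VPS27 were thus lower in both rpn4Δ and arr1Δ. The share of all genes lower in both is not given here, so this overlap is not a result about the members. Whether these 2 comparisons shared RNA of 1 untreated parent culture is not given in the sources used here. VPS41 and VPS55, the members with the largest differences after AsIII in arr1Δ, stood at -0.20 and -0.20 before treatment and did not pass.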

How the data were processed

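Gene expression was measured on 20 spotted cDNA arrays (poly(A) RNA) and 20 Agilent oligonucleotide arrays (total RNA), each comparing 2 labelled RNAs, with each dye orientation equally represented in every group. The authors deposited log2 ratios for the cDNA arrays; their normalization is not given in the sources used here. The authors deposited log10 ratios from Agilent's software for the other platform, limited to -2 and 2 (no VPS gene reached a limit), and these were multiplied by 3.3219 to give log2 ratios. In both tables the ratios already ran the same way in both dye orientations. Genes were named through the platform annotation, and spots of 1 gene were averaged (41 probes on cDNA arrays, 66 on Agilent arrays).

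The arrays of 1 culture pair were averaged before testing; in the parent strain on Agilent arrays, arrays 1 and 2 and arrays 3 and 4 were taken as pairs by their number, which is an assumption. Log2 ratios of all genes were fitted with limma 3.58.1 (R 4.3.3), with Benjamini-Hochberg adjustment over all 5540 or 5598 genes and a threshold of 0.05. The spread had 1 residual degree of freedom on each platform and 2 in the combined fit, from the 2 culture pairs at 1 mM and the 2 array pairs of the parent, and single-pair conditions were assumed to vary like these. Arrays carry no count depth, and their number limits the precision. Tables and plots were made with Python 3.11.15, numpy 2.4.6, pandas 2.3.3 and matplotlib 3.10.9.

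Members were all genes with a VPS symbol. Those named in full were, by rule, up to 5 called members in each direction and the 2 highest and 2 lowest members of each comparison, and of other lists the 2 largest called genes; others were named to describe their role group, after their values were seen. The members and lists were chosen with earlier results of these data known. VPS501 was placed in a role group after the lists were written. The settings varied were the centring of arrays, arrays rather than pairs as replicates, a replicate block, the use of a single dye orientation, median over probes, a p and fold threshold, and left-out pairs. No sequence is shown.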

Additional observations from a re-analysis of the deposited data

Results flagged for a closer look

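Of 42 groups of 4 to 8 arrays examined (the median over the 41 members in each condition, and each called member in its condition), 3 held 1 array far from the rest; chance alone marks about 1 in 20 such groups. At 1 mM, the third array of the first culture pair had a median over the members of 0.235, while the other 7 arrays lay between -0.006 and 0.095. In the AsIII-treated parent VPS45 read 0.294 on array 4 against 0.491 to 0.513 on the other 3, and VPS51 read -0.807 on array 3 against -0.883 to -0.870. Both genes kept their direction on all 4 arrays.

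The response to AsIII differed between a deletion strain and the parent in 42 tests of the difference itself, as deletion strain minus parent on the log2 scale, all of them resting on the same 4 parent arrays. All 41 members were tested in each strain. In yap1Δ, cad1Δ, rpn4Δ and arr1Δ, 0%, 0%, 24.4% and 29.3% of members were higher, beside 5.39%, 1.75%, 21.3% and 28.6% of all genes. In the same order 9.76%, 2.44%, 12.2% and 24.4% of members were lower, beside 7.36%, 2.48%, 17.7% and 25.5% of all genes. In yap1Δ the ratio was lower for VPS501 (-1.74), VPS25 (-0.86), VPS15 (-0.82) and VPS60 (-0.67), and in cad1Δ for VPS15 (-0.75). In rpn4Δ it was lower for VPS15 (-0.89), VPS9 (-0.66), VPS25 (-0.58), VPS60 (-0.58) and VPS72 (-0.52). In the same strain it was higher for VPS68 (1.05), VPS8 (1.04), VPS13 (1.02), VPS36 (0.90), VPS54 (0.76), VPS35 (0.64), VPS501 (0.59), VPS17 (0.53), VPS34 (0.53) and VPS20 (0.50). In arr1Δ it was lower for VPS41 (-1.84), VPS55 (-1.52), VPS15 (-1.12), VPS52 (-1.01), VPS9 (-0.98), VPS74 (-0.83), VPS501 (-0.70), VPS25 (-0.69), VPS75 (-0.62) and VPS71 (-0.54). It was higher in arr1Δ for VPS17 (1.31), VPS13 (1.21), VPS34 (1.21), VPS36 (1.12), VPS30 (1.00), VPS62 (0.96), VPS24 (0.89), VPS51 (0.84), VPS68 (0.79), VPS20 (0.77), VPS27 (0.71) and VPS8 (0.55). VPS15 is in all 4 of these groups, and its first parent array (1.08) stood above the other 3. Each ratio is against the strain's own untreated culture. Before treatment VPS27 (-0.56) and VPS8 (-0.45) were already lower in arr1Δ than in the parent, as were VPS8 (-0.50) and VPS13 (-0.49) in rpn4Δ. A higher ratio for these genes is therefore not by itself a higher level after AsIII.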

How the results depend on the processing

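Over all settings 82 of 129 counts of called members stayed within 1.5 times the reported count. The share of all genes called under a changed setting is not given, apart from the 2-fold rule in the treated strains on Agilent arrays. The other counts below therefore cannot be set against all genes. Of the values of single members named by rule, 761 kept their direction and their side of the threshold, and 37 no longer passed. Of the same values 9 newly passed and 8 changed sign. Another 6 values, from left-out pairs with no test, moved by more than their error without a change of sign. Median centring moved no count of calls by more than 1.5 times. With each array as a replicate, a technical spread, the calls on cDNA arrays were 18 at 1 mM, 13 at 2 h, 4 at 4 h, 7, 10 and 11 for 2 h minus 30 min, 4 h minus 2 h and 1 mM minus 100 μM, and 15 for the combined response; the differences from the parent gave 2 in yap1Δ and 0 in cad1Δ. When array numbers also entered as a replicate block, these were 19, 15, 6, 9, 15, 14 and 17 on cDNA arrays and 9 in yap1Δ and 2 in cad1Δ, and the untreated strains gave 1 in yap1Δ, 13 in rpn4Δ and 11 in arr1Δ. Array numbers are only names here, and arrays 3 and 4 exist only in the parent on the Agilent platform. At an unadjusted p under 0.001 and 2-fold, calls were 2 at 1 mM, 1 in the combined response, 6 in the parent, 7 in yap1Δ, 7 in cad1Δ, 4 in rpn4Δ and 0 in arr1Δ, 0 in untreated rpn4Δ and arr1Δ, and 1, 0, 3 and 9 for yap1Δ, cad1Δ, rpn4Δ and arr1Δ minus parent.

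With the Cy5 arrays alone, calls were 2 at 2 h, 1 in the combined response, 16 in untreated yap1Δ, 2 in untreated cad1Δ and 0 for cad1Δ minus parent. With Cy3 alone they were 7 in the combined response, 1 in untreated yap1Δ, 3 in untreated arr1Δ, and 2, 0 and 5 for yap1Δ, cad1Δ and rpn4Δ minus parent. Shares of all genes with 1 orientation alone are not given either, so these counts are not a result about the members. Among the members named by rule in each comparison, signs changed with 1 orientation only where no call had been made. At 100 μM for 30 min these were VPS13 (0.54, Cy3) and VPS15 (-0.53, Cy5). In untreated yap1Δ they were VPS1 (0.14, Cy5), VPS16 (0.38, Cy3), VPS28 (-0.51, Cy3) and VPS60 (-0.22, Cy3). The rest were VPS75 (-0.15, Cy5) in untreated arr1Δ and VPS30 (-0.31, Cy5) for cad1Δ minus parent. Members outside that rule changed sign although they were called. Examples after AsIII are VPS75 in yap1Δ (-0.29, Cy5) and arr1Δ (0.40, Cy3), VPS15 in yap1Δ (0.39, Cy5) and VPS21 in the parent (-0.01 and -0.10, Cy5). The cause was not tested. Leaving out a culture pair gave 0 to 4 calls in the combined response, with 0 without either pair at 1 mM; in the other fits it left no residual degrees of freedom and so values with no test.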
